A study of Mus musculus with 66 samples.

Results

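The genes described here are 8 genes of synaptic plasticity and neurotrophin signalling, Arc, Npas4, Homer1, Nptx2, Bdnf, Ntf3, Ntrk2 and Ntrk3, among the 24138 genes of a table of FPKM (fragments per kilobase of transcript, scaled to the mapped fragments of each library) from the ventral striatum of mice. They were taken by gene symbol, whatever their values, and all 8 had a row of their own. RNA came from punches of the nucleus accumbens (NAcc) of male mice aged 3 to 5 months on a C57BL/6 background, kept in equal spans of light and dark, where ZT counts the hours after lights on. WT mice were compared with iMSN-D2RKO mice, in which D2R flox/flox alleles were recombined by D1R-CRE. The D1R promoter drives this Cre, and the deletion reaches the indirect-pathway medium spiny neurons (iMSNs) because their embryonic precursors express both receptors. Whether WT mice carried the floxed alleles is not given in the sources used here. Mice received saline or cocaine at 20 mg/kg intraperitoneally at ZT3 and were killed at ZT7, ZT11, ZT15, ZT19 or ZT23, with 3 libraries per group. A further 3 libraries per genotype were taken at ZT3 and are labelled with both treatments, so that they open the saline and the cocaine series alike. The labels do not say whether these mice were injected, so in a difference of later saline groups from ZT3 the hour and an injection cannot be told apart. This gives 66 distinct libraries in 22 groups of 3.

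Neuronal activity raises calcium and cAMP in the cell, and these signals switch on immediate early genes within minutes through factors already bound at their promoters, such as CREB and SRF. Npas4 encodes a transcription factor of this kind that responds to calcium entry, Arc encodes a protein that travels to active synapses and removes AMPA receptors, the short form of Homer1 loosens the scaffold around group I metabotropic glutamate receptors, and Nptx2 (neuronal pentraxin 2, also called Narp) is a secreted protein that clusters AMPA receptors. Bdnf and Ntf3 encode the neurotrophins BDNF and NT-3, whose preferred receptors are the tyrosine kinases TrkB (Ntrk2) and TrkC (Ntrk3). In the striatum most BDNF protein is delivered by axons from the cortex rather than made locally, and cocaine and light-dark phase are both known to act on immediate early genes there.

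Among RefSeq promoter windows of GRCm38.p6, which run from 250 bases before to 50 after an annotated start, 13 belonged to 5 of the genes: 1 to Npas4, 2 to Homer1, 7 to Bdnf, 2 to Ntf3 and 1 to Ntrk2. Arc, Nptx2 and Ntrk3 had none. The windows were searched on both strands for the cAMP response element TGACGTCA, for its core TGACG, which lies within it, and for the E-box CACGTG, the element of clock factors. The stretches with the core, in windows of Npas4, Homer1 and 1 start of Bdnf, are shown. Capitals mark the core on either strand, each sequence is written along the gene's own strand, and coordinates follow.
Npas4, chr19:4990129-4990158, minus strand: ccgttcgaCGTCAcgggaTGACGtcggaag
Homer1, chr13:93303657-93303756, plus strand: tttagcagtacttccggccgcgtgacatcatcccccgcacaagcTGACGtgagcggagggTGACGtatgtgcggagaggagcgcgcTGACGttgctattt
Bdnf, chr2:109692336-109692435, plus strand: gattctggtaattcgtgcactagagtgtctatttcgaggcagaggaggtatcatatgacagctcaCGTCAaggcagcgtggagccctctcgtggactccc
The Npas4 stretch held the core 2 times, beginning 179 and 169 bases before the start. That of Homer1 held it 3 times, 56, 40 and 14 bases before the start, and that of Bdnf held it once, 35 bases before 1 of its 7 starts. The Npas4 stretch lies within the first exon of the gene's GENCODE annotation, which starts further upstream than the RefSeq start used here. The full element was in none of the 13 windows, and the E-box was in 1 window of Ntf3. Of all 32851 windows of this length, 20.8% held the core, 1.79% the full element and 7.15% the E-box. These are matches of letters, and binding was not measured here.

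The targeted gene, Drd2, ranged from 78.0 to 375 FPKM over the 66 libraries and its level as a whole gene did not pass as different between iMSN-D2RKO and WT mice (log2 difference over ZT7 to ZT23 of 0.01 ± 0.18 SE in saline and -0.25 ± 0.18 in cocaine, limma); reads over the deleted part were not counted apart here. A set of 13 libraries, 6 of WT and 7 of iMSN-D2RKO mice in 10 of the groups, stood apart from the other 53. They did so along the axis with the largest share of the variance within groups (43.6%), with scores from 44.3 to 56.1 against -35.9 to 15.1. All of them but 1, of iMSN-D2RKO cocaine at ZT7, were taken in the dark, at ZT15, ZT19 or ZT23. The place on this axis and the dark hours therefore cannot be fully told apart. Nptx2 and Homer1 are strong on this axis: within the 10 groups that hold both kinds, the set-apart libraries differed by -1.42 on the log2 scale for Nptx2 and by 0.88 for Homer1, and Drd2 by 1.04. Replicate 1 of iMSN-D2RKO saline ZT7 had a summed FPKM of 690048, against at most 465297 elsewhere. Markers of spiny neurons were present in all libraries (sum of 10 genes, 2604 to 15442 FPKM), markers of cortical glutamatergic neurons summed to 14.7 to 321 FPKM, and markers of the choroid plexus, none of which was at 0 throughout, summed to 62.0 to 177 FPKM in the 6 libraries of ZT3 against a median of 9.31 in the rest. In tissue of this kind, fewer cells of a type and less RNA per cell cannot be told apart. Where nothing else is said, a gene is said to have passed where limma's test on log2(FPKM + 1), with Benjamini-Hochberg adjustment over 14643 genes, gave an adjusted p under 0.05. Ntf3 did not reach 1 FPKM in any library and was not tested, which leaves 7 of the 8 genes.

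Arc (chr15:74669083-74672570, minus strand, GRCm38) varied more over the day than any other of the 8 genes in the cocaine-treated WT mice, and its highest and lowest group means were both in WT. At ZT3 the WT libraries held 173, 82.9 and 141 FPKM, whereas those of iMSN-D2RKO mice held 22.9, 35.6 and 46.0. The groups did not overlap. The log2 difference of iMSN-D2RKO from WT at ZT3 was -1.89 ± 0.42 (SE), with an adjusted p of 0.0879 over all genes, and 0.041% of all genes passed this comparison. Without the 13 set-apart libraries, none of which was taken at ZT3, the difference was the same with an adjusted p of 0.00947, because the spread is estimated over all groups. With the score as a covariate it was -1.92 (adjusted p = 0.0162). These were the only 2 of 15 alternative settings in which the difference passed, and over all 15 it ran from -2.23 to -1.39. It did not pass with any replicate number dropped from all groups. The choroid plexus markers were high at ZT3 in both genotypes, and with their level as a covariate the difference was -1.88 (adjusted p = 0.101).

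After saline, Arc in WT mice was 29.4, 34.2 and 30.5 FPKM at ZT7, 30.1, 32.6 and 33.6 at ZT11, and 38.0, 45.2 and 40.5 at ZT15. It was 27.4, 33.1 and 25.4 at ZT19 and 19.4, 30.0 and 63.3 at ZT23. All 15 saline libraries thus lay under the lowest WT library of ZT3. In iMSN-D2RKO mice the 15 saline libraries ran from 17.8 to 84.0 FPKM and overlapped those of ZT3. Over ZT7 to ZT23 the WT saline groups lay below ZT3 by a log2 difference of -1.91 ± 0.33 (adjusted p = 4.21e-04), in a comparison that 0.348% of all genes passed. The same difference in iMSN-D2RKO mice was 0.17 ± 0.33 (adjusted p = 0.805, with 0.0205% of all genes passing). The WT difference passed at ZT7 (-1.98), ZT11 (-1.95), ZT19 (-2.11) and ZT23 (-1.89) and not at ZT15 (-1.60, adjusted p = 0.218). The shares of all genes passing at these times were 0.15%, 0.137%, 6.26% and 0.458%, and 0.0341% at ZT15. The calls at ZT7, ZT11 and ZT23 were lost with any replicate number dropped from all groups, and that at ZT19 with number 1 or 2 dropped. Without the set-apart libraries the calls at ZT19 (-2.27, adjusted p = 0.103) and ZT23 (-1.51, adjusted p = 0.0917) were lost and ZT15 passed (adjusted p = 0.0324). The difference over the times did not pass with replicate 1 dropped from all groups (-1.57, adjusted p = 0.248), and with the level of choroid plexus markers as a covariate it was -2.02 (adjusted p = 0.0011). The genotypes' differences from ZT3 were themselves compared at each time, and none of the 5 passed (1.65 to 2.32 on the log2 scale, adjusted p from 0.281 to 1); of all genes 0.0205% passed at ZT7, 0.00683% at ZT11, 0.00683% at ZT15, 0.0137% at ZT19 and 0.00683% at ZT23.

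Cocaine-treated WT mice showed low Arc in the late light hours and high Arc in the dark. The 3 libraries held 24.9, 39.4 and 32.3 FPKM at ZT7 and 19, 18.1 and 20.8 at ZT11, the lowest group mean of the 22. They held 57.8, 79.1 and 99.97 at ZT15, 31.6, 42.7 and 142 at ZT19, and 90.4, 132 and 98.1 at ZT23. The ZT19 libraries spread widely, and the lowest and the highest of them are both set-apart libraries. In iMSN-D2RKO mice cocaine groups held 24.9, 16.8 and 39.9 FPKM at ZT7, 33.6, 68.5 and 28.7 at ZT11, and 111, 54.5 and 42.7 at ZT15. They held 116, 101 and 112 at ZT19 and 27.4, 35.4 and 51.7 at ZT23. The highest group mean after cocaine was thus at ZT23 in WT mice (107 ± 22 FPKM, SD, n = 3) and at ZT19 in iMSN-D2RKO mice (109.8 ± 7.72 FPKM, n = 3). When the 22 groups were ordered by mean, no neighbours in the order were without overlap.

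**Figure D1:**
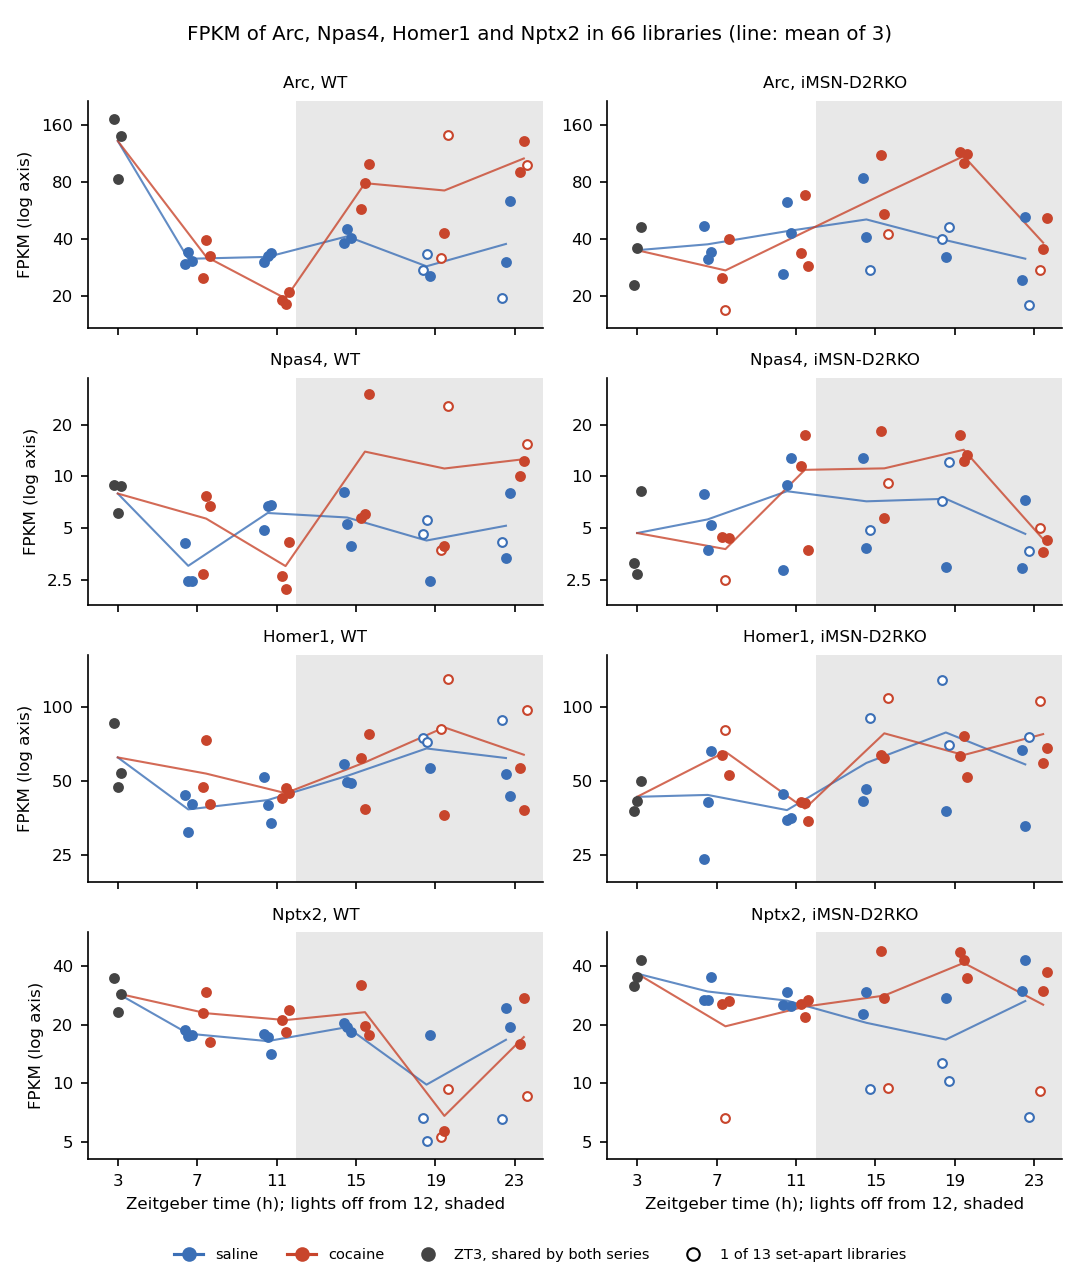
Level of Arc, Npas4, Homer1 and Nptx2 in FPKM (log axes) against the time of killing in hours after lights on, for WT and iMSN-D2RKO mice after saline or cocaine; points are libraries (open, set-apart ones), lines join the means of 3 libraries, shading marks the dark hours, and the ZT3 libraries open both treatments' lines. The WT libraries of ZT3 for Arc lie between 82.9 and 173 FPKM, above all 15 WT saline libraries of later times.

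The test for any change over the 6 time points passed for Arc in 3 of the 4 series. The spread between the lowest and highest group means was 2.65 on the log2 scale in WT cocaine (adjusted p = 1.46e-04), 2.11 in WT saline (adjusted p = 0.0111) and 2.06 in iMSN-D2RKO cocaine (adjusted p = 0.0317). Among all genes, 28% passed in WT cocaine, 1.6% in WT saline and 0.997% in iMSN-D2RKO cocaine, and 3.49% in iMSN-D2RKO saline, where Arc did not. The WT cocaine call held under all 15 alternative settings (highest adjusted p 0.0307), and the other series lost it with any replicate number dropped from all groups. In WT saline the mean of ZT3 stood above all others. In WT cocaine the means fell from ZT3 to ZT11 and were high again in the dark, and in iMSN-D2RKO cocaine ZT19 stood above the rest.

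The dark hours (ZT15, ZT19 and ZT23) lay above the light hours (ZT3, ZT7 and ZT11) for Arc in both cocaine series, by 0.85 ± 0.24 in WT (adjusted p = 0.0208) and by 0.94 ± 0.24 in iMSN-D2RKO mice (adjusted p = 0.0408). The WT call was lost with replicate number 2 (0.79, adjusted p = 0.0622) or 3 (0.63, adjusted p = 0.292) dropped from all groups. The iMSN-D2RKO call was lost with any number dropped (0.73 to 1.05, adjusted p from 0.163 to 0.608), and also without a filter, with scaling to the median ratio and with the choroid plexus markers as a covariate (adjusted p from 0.0523 to 0.0578). After saline the difference was -0.56 ± 0.24 in WT mice (adjusted p = 0.138) and -0.01 ± 0.24 in iMSN-D2RKO mice, neither of which passed. Of all genes, 13.7% passed this comparison in WT cocaine, 0.942% in iMSN-D2RKO cocaine, 2.75% in WT saline and 27.3% in iMSN-D2RKO saline. The treatments of a genotype share their ZT3 libraries, which cancel when the treatments are compared. That comparison was added after seeing the data. For cocaine against saline it gave 1.40 ± 0.31 in WT mice (adjusted p = 0.240). In iMSN-D2RKO mice it gave 0.95 ± 0.31 (adjusted p = 0.648), so neither passed. No gene but Arc among the 7 tested passed the comparison of dark with light hours in any series. The nearest were Homer1 (0.56 ± 0.22, adjusted p = 0.0526) and Nptx2 (-0.72 ± 0.30, adjusted p = 0.0613) in iMSN-D2RKO saline, and Npas4 in WT cocaine (0.86 ± 0.31, adjusted p = 0.0549). Over the 15 alternative settings the Homer1 difference ran from 0.06 to 0.69, and it passed in 6 of them. For Nptx2 in WT cocaine the difference had an adjusted p of 0.0649 by limma with all libraries. Over the 15 alternative settings it ran from -0.87 to -0.12. It passed in 1 of them, that without the set-apart libraries (-0.71), where 1 library was left at ZT19.

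Compared with saline at the same time, Arc was higher after cocaine by group mean at 4 of 5 times in WT mice and at 3 of 5 in iMSN-D2RKO mice. The log2 difference was largest in WT mice at ZT23, at 1.63 ± 0.42, a fold of 3.09 on the log2(FPKM + 1) scale (adjusted p = 0.994 by limma). It was 1.47 ± 0.42 in iMSN-D2RKO mice at ZT19 (adjusted p = 0.304 by limma). Over the 5 times it was 0.57 ± 0.19 in WT (adjusted p = 1) and 0.36 ± 0.19 in iMSN-D2RKO mice (adjusted p = 0.910). None of the 70 pairs of a gene and a time and none of the 14 means over time passed limma's test for cocaine against saline, while 9 of the 70 and 2 of the 14 had an unadjusted p under 0.05. Of all genes, 0.41% to 22.9% had such a p at a single time, the highest shares being those of iMSN-D2RKO mice at ZT7 (22.9%) and ZT19 (16%), and 2.49% and 4.86% over the times in WT and iMSN-D2RKO mice. Few genes of any kind passed: in WT mice 0.00683% at ZT7, 0% at ZT11, 0.00683% at ZT15, 0.0205% at ZT19, 0% at ZT23 and 0.0137% over the times. In iMSN-D2RKO mice 0.0137% passed at ZT7, 0% at ZT11, 0% at ZT15, 0% at ZT19, 0% at ZT23 and 0% over the times.

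Cocaine and saline libraries did not overlap for some of the genes, which is a description and not a test. In WT mice Arc was higher after cocaine without overlap at ZT15 and ZT23 and lower at ZT11 (19.3 ± 1.36 against 32.1 ± 1.76 FPKM, SD, n = 3 each). Npas4 was lower without overlap at ZT11 and higher at ZT23, Nptx2 was higher at ZT11, and Ntrk2 and Ntrk3 were higher at ZT7. In iMSN-D2RKO mice Arc, Npas4 and Nptx2 were all higher without overlap at ZT19 and Nptx2 was lower at ZT7. Ntf3, whose values are near 0, was higher in WT mice at ZT7, where all 3 saline libraries are listed at 0, and lower at ZT11. Homer1 and Bdnf overlapped at every time. The share of all genes without overlap was 9.06% at ZT7, 11.7% at ZT11, 12.6% at ZT15, 8.84% at ZT19 and 4.53% at ZT23 in WT mice. In iMSN-D2RKO mice it was 15.1%, 4.98%, 4.33%, 14.8% and 4.08% at the same times.

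**Figure D2:**
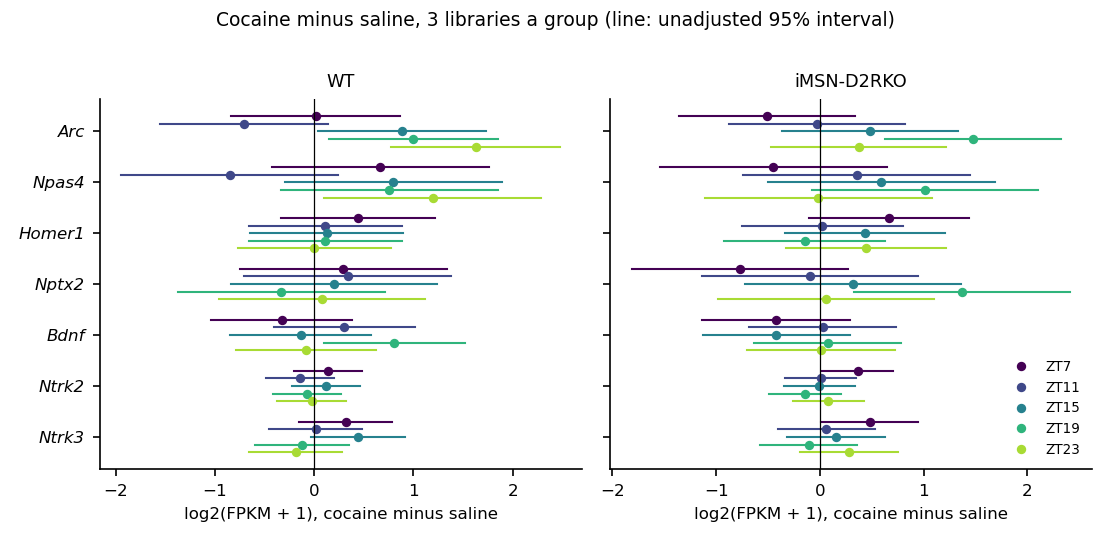
Log2 difference of cocaine from saline, on the log2(FPKM + 1) scale, at each time for the 7 genes tested, in WT and iMSN-D2RKO mice; points are estimates of limma from 3 libraries a group and bars their unadjusted 95% intervals. Arc in WT mice at ZT23 has the highest estimate (1.63), and none of the 70 estimates passed after adjustment over all genes.

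Npas4 (chr19:4984355-4990316, minus strand) was the scarcest of the immediate early genes here, at 2.22 to 30.0 FPKM with a median of 5.42. In WT mice it was 10.1, 12.2 and 15.4 FPKM after cocaine at ZT23 and 4.14, 3.35 and 7.97 after saline, without overlap. In iMSN-D2RKO mice at ZT19 it was 17.3, 12.3 and 13.2 after cocaine and 7.13, 2.97 and 12.1 after saline. Its groups were otherwise uneven: WT cocaine at ZT15 held 5.74, 6.05 and 30.0 FPKM and at ZT19 it held 3.72, 3.94 and 25.6, so that 1 library carried each mean. The library with 30.0 FPKM also had the highest Ntrk3 of all, and that with 25.6 FPKM is a set-apart library. At ZT3 the WT libraries held 8.94, 6.07 and 8.78 FPKM and those of iMSN-D2RKO mice 3.13, 2.7 and 8.18, which overlap (log2 difference -0.77 ± 0.54, adjusted p = 1). Npas4 passed none of the limma tests above.

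Npas4 followed Arc more closely than it followed any other gene. Over the 22 group means of log2(FPKM + 1), which share libraries, depth and dissection, the genes with the highest Pearson correlation with Npas4 were Arc (r = 0.86), Fos (0.83) and Dusp1 (0.80), among 9583 genes with a mean of at least 5 FPKM. For Arc they were Fos (0.95), Dusp1 (0.92) and Egr2 (0.92). Over the 66 deviations of single libraries from their group means they were Fos (0.82), Junb (0.75) and Npas4 (0.74) for Arc, and Arc (0.74), Egr1 (0.67) and Fos (0.64) for Npas4. Fos, Junb, Egr1 and Egr2 encode transcription factors and Dusp1 a phosphatase of MAP kinases, all known immediate early genes.

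Homer1 (chr13:93299635-93405129, plus strand), of which the table gives 1 value over the long scaffold forms and the short activity-induced form, ranged from 24.1 to 131 FPKM with a median of 51.8. It was higher in the set-apart libraries (70.4 to 131 FPKM, median 89.1) than in the others (24.1 to 86.1, median 46.7), in all 10 groups that hold both. Its lowest and highest means in WT saline were at ZT7 (43.7, 30.9 and 40.2 FPKM) and ZT19 (74.9, 72.1 and 56.5). In iMSN-D2RKO saline they were at ZT11 (44.1, 34.7 and 35.2 FPKM) and ZT19 (129, 37.7 and 70.4). At ZT19 the 2 higher libraries of each group are the set-apart ones, and change over time passed for Homer1 in neither series. Its mean was higher after cocaine than after saline at all 5 times in WT mice and at 4 of 5 in iMSN-D2RKO mice, with overlap at each. The log2 difference over the 5 times was 0.16 (95% interval -0.19 to 0.51) in WT and 0.28 (-0.06 to 0.63) in iMSN-D2RKO mice. The genes most like it were Kdm7a (r = 0.92), Gabra2 (0.91) and Ranbp2 (0.90) over group means, and Osbpl8 (0.95), Smad4 (0.95) and 9430020K01Rik (0.95) over single libraries, and none of these is an immediate early gene in the list used here. With Arc, Homer1 had r = 0.33 over group means and -0.17 over single libraries.

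**Figure D3:**
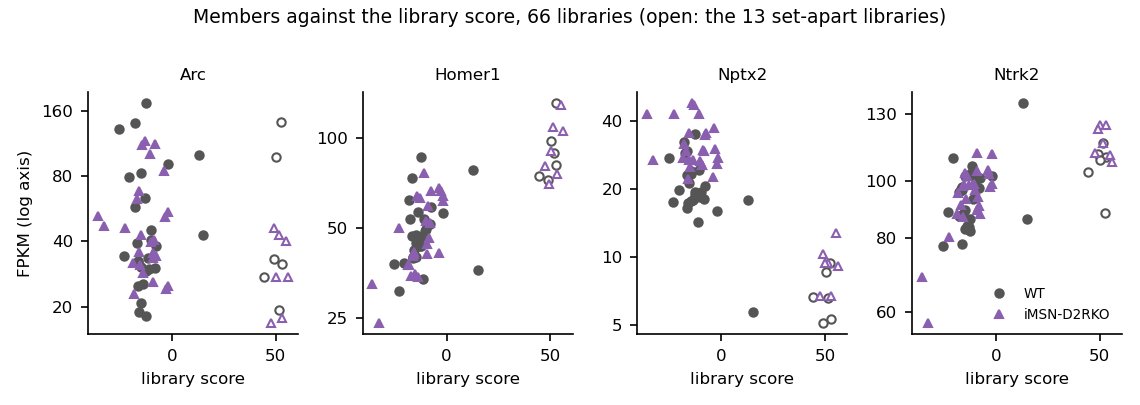
Level of Arc, Homer1, Nptx2 and Ntrk2 in FPKM (log axes) against the score of each library on the leading axis of within-group variance (no unit), for all 66 libraries by genotype; open symbols are the 13 set-apart libraries. Nptx2 is at 5.08 to 12.7 FPKM in the set-apart libraries and Homer1 at 70.4 to 131 FPKM.

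Nptx2 (chr5:144545902-144557478, plus strand) was higher in iMSN-D2RKO than in WT mice at ZT19 after cocaine, the 1 genotype difference of these genes that passed. The libraries held 47.2, 43.0 and 34.8 FPKM in iMSN-D2RKO and 5.31, 5.72 and 9.40 in WT mice, far apart. The log2 difference was 2.48 ± 0.52, a fold of 5.56, with an adjusted p of 0.0424. At that time 11.9% of all genes passed, the highest share of the 11 comparisons of genotypes. Of the WT libraries, those with 5.31 and 9.40 FPKM are set-apart ones and that with 5.72 is not, while no iMSN-D2RKO library of this group is. The WT library with 5.72 FPKM has the highest score of those not set apart (15.1). Without the set-apart libraries the difference was 2.66 (adjusted p = 6.83e-07), resting on 1 WT library that is taken to vary as the other groups do, and with the score of each library as a covariate it was 1.29 (adjusted p = 0.0496). It missed the threshold with replicate 1, 2 or 3 dropped from all groups (adjusted p from 0.0736 to 0.182). Markers of cortical neurons summed to 202 to 213 FPKM in the iMSN-D2RKO group and to 67.2 to 178 in the WT group, and with their level as a covariate the difference was 2.5 (adjusted p = 0.0337). Of the markers of other cells, 1 of 7 for microglia (P2ry12, -1.41), 2 of 6 for endothelium (Ly6c1, -1.27, and Slco1a4, -0.55), 1 of 6 for interneurons (Sst, -0.99) and 1 of 8 for astrocytes (Slc1a3, -0.87) were lower in iMSN-D2RKO mice in this comparison. Of the 10 for spiny neurons 1 was higher (Drd1, 0.74), and none of the oligodendrocyte, choroid plexus or cortical markers passed. Astrocyte markers summed to 286 to 303 FPKM in the iMSN-D2RKO group and 361 to 455 in the WT group, and interneuron markers to 1262 to 1339 and 1638 to 2560. Their part in the Nptx2 difference was not tested.

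In the set-apart libraries Nptx2 was 5.08 to 12.7 FPKM (median 8.59), against 5.72 to 48.0 in the others (median 25.6), and it was lower in 9 of the 10 groups that hold both. The exception is WT cocaine at ZT19. In WT saline at ZT19 the values were 6.64, 5.08 and 17.9 FPKM, and in iMSN-D2RKO saline 12.7, 27.5 and 10.3, where the high library in each is the one that is not set apart. Without the set-apart libraries, iMSN-D2RKO saline libraries ran from 22.7 to 43.0 FPKM (median 27.5, n = 11) and WT saline libraries from 14.3 to 24.3 (median 18.2, n = 12). After cocaine they ran from 22.1 to 48.0 (median 28.6, n = 12) in iMSN-D2RKO and from 5.72 to 32.2 (median 20.5, n = 12) in WT mice. Over ZT7 to ZT23 the genotypes differed by 0.51 ± 0.23 in saline (adjusted p = 0.391) and by 0.56 ± 0.23 in cocaine (adjusted p = 0.840) with all libraries. Without the set-apart libraries they differed by 0.61 and 0.88, with 1 library left in some groups of ZT19. With the score as a covariate they differed by 0.58 (adjusted p = 0.00239) and 0.59 (adjusted p = 0.00235). At single times Nptx2 also passed without the set-apart libraries at ZT7 after saline (0.68, adjusted p = 0.0374). This comparison includes replicate 1 of iMSN-D2RKO saline ZT7, the library with the outlying FPKM sum. With all libraries 449 genes passed it, and 0 to 2840 did over the alternative settings. Nptx2 is 1 of the 9584 genes from which the score was computed. With all libraries none of the 14 pairs of a gene and a treatment passed, and 2, both of Nptx2, had an unadjusted p under 0.05 by limma. Of all genes 11.3% had such a p in saline and 4.95% in cocaine.

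Between genotypes at single times, 1 of 77 pairs of a gene and a comparison passed and 7 had an unadjusted p under 0.05. Of all genes, 0.478% to 37.9% had such a p in a single comparison. The highest shares were those after cocaine at ZT19 (37.9%) and ZT15 (22.3%). Arc after cocaine was lower in iMSN-D2RKO mice at ZT23, with a log2 difference of -1.49 ± 0.42 (adjusted p = 0.881). It was 1.03 ± 0.42 at ZT11 (adjusted p = 1) and 0.91 ± 0.42 at ZT19 (adjusted p = 0.108), so that its sign changed from time to time. The shares of all genes passing in saline were 3.07% at ZT7, 0% at ZT11, 0% at ZT15, 0.0205% at ZT19 and 0% at ZT23, and 0.212% over the times. In cocaine they were 0% at ZT7, 0% at ZT11, 4.4% at ZT15, 11.9% at ZT19 and 0.0137% at ZT23, and 0.109% over the times. The effect of cocaine did not pass as different between genotypes for any of the 7 genes, over the times or at ZT7, where 0% and 0.0137% of all genes did; 0 of the 14 pairs had an unadjusted p under 0.05 by limma. For Arc this difference over the times was -0.21 (95% interval -0.74 to 0.33). The comparisons of this kind at ZT11, ZT15, ZT19 and ZT23 were added after seeing the data. At ZT19 the difference was 1.70 ± 0.73 for Nptx2 (adjusted p = 0.239 by limma). Of all 14643 genes 0 passed at ZT19, and 20.2% had an unadjusted p under 0.05 by limma. Without the set-apart libraries the Nptx2 difference was 2.06, with 1 library left in WT saline and 1 in WT cocaine. For Arc at ZT23 the difference ran from -2.32 to -0.56 over the 15 alternative settings and passed in 0 of them.

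Nptx2 changed over time in WT cocaine, with a range of group means of 1.96 on the log2 scale (adjusted p = 0.0334 by limma) and its lowest mean at ZT19. Of all genes 28% passed this test in WT cocaine. With the score as a covariate the range was 0.67 (adjusted p = 0.332). Without the set-apart libraries it was 2.14, with 1 library left at ZT19, which has the highest score of those not set apart (15.1). In WT mice at ZT19 the cocaine and saline libraries overlapped (log2 difference -0.33 with all of them). Without the set-apart libraries 1 library was left in each group, and the difference of -1.49 between them has an adjusted p of 0.00867 by limma only with the spread of the other groups, so it does not compare replicates. In WT saline it fell from ZT3 (35.0, 23.2 and 28.8 FPKM) to ZT19 by 1.63 on the log2 scale (adjusted p = 0.0484), in a comparison that 6.26% of all genes passed, and 2 of the 3 ZT19 libraries are set apart. The difference was -0.65 without the set-apart libraries (adjusted p = 0.830) and -0.66 with the score as a covariate (adjusted p = 0.134), so the call was lost with either. The genes most like Nptx2 were Gadd45b (r = 0.93), Mpp3 (0.93) and Srxn1 (0.92) over group means, and Tmem198 (0.95), Kcnj4 (0.95) and Mpp3 (0.94) over single libraries. Gadd45b, a gene of stress and activity response, is on the list of activity-induced genes. Arc had r = 0.22 with Nptx2 over group means and 0.50 over single libraries.

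Bdnf (chr2:109674700-109727007, plus strand), which has several starts that the table sums to 1 value, was low throughout: 0.0944 to 3.41 FPKM, with at least 1 FPKM in 32 of the 66 libraries. Its lowest and highest means in WT saline were at ZT11 (0.779, 0.487 and 0.683 FPKM) and ZT23 (3.09, 2.23 and 1.53). In WT cocaine they were at ZT7 (0.443, 0.991 and 0.182) and ZT19 (2.41, 1.1 and 3.41), and in iMSN-D2RKO cocaine at ZT15 (0.555, 0.535 and 0.261) and ZT19 (2.42, 2.54 and 1.31). In iMSN-D2RKO saline the lowest mean was at ZT3 (0.786, 1.27 and 0.0944) and the highest at ZT19 (3.35, 0.297 and 3.25). The highest mean of each series was thus at ZT19 or ZT23, while the time of the lowest differed. The libraries with 3.09, 3.41, 3.35 and 3.25 FPKM are set-apart ones, while iMSN-D2RKO cocaine at ZT19 holds none. Bdnf had a median of 1.58 FPKM in the set-apart libraries and of 0.812 in the others. It was higher in the set-apart libraries in 6 of the 10 groups that hold both. Change over time passed in WT cocaine, where 28% of all genes did, with a range of group means of 1.07 on the log2 scale (adjusted p = 0.0400 by limma). The call held in 5 of 15 alternative settings, and with the level of cortical markers as a covariate the range was 0.39 (adjusted p = 0.398). In the WT cocaine libraries, cortical markers summed to 30.9 to 125 FPKM at ZT7, 52.5 to 300 at ZT11 and 38.4 to 113 at ZT15. They summed to 67.2 to 178 FPKM at ZT19, where the Bdnf mean was highest, and to 135 to 321 at ZT23. The genes most like Bdnf were Ipcef1 (r = 0.87), Nr4a2 (0.87) and Syt17 (0.87) over group means and Rtn4rl2 (0.86), Nov (0.86) and 3110035E14Rik (0.85) over single libraries.

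Ntf3 (chr6:126101412-126166910, minus strand) ranged from 0 to 0.483 FPKM and is listed at 0 in 9 of the 66 libraries, so no difference was tested. Its highest value was in a set-apart library of WT saline at ZT19 (0.483 FPKM, against 0.188 and 0.0363 in the same group). The genes most like it over group means were Zfp36l1 (r = 0.63), AW209491 (0.62) and Zfp36l2 (0.61), and over single libraries Dlx2 (0.64), Cd24a (0.62) and Vim (0.61).

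The receptor genes were far more abundant than their ligands. Ntrk2 (chr13:58806569-59133970, plus strand) ranged from 57.4 to 136 FPKM (median 97.8), and Ntrk3 (chr7:78175959-78738012, minus strand) from 13.6 to 78.0 (median 25.2). FPKM count per length, so on this scale Ntrk2 was the highest of the 8 genes by mean over all libraries (97.8 FPKM) and Ntf3 the lowest (0.12). The lowest value of Ntrk2, Ntrk3 and Homer1 alike was that of replicate 1 of iMSN-D2RKO saline ZT7, the library with the outlying FPKM sum. The highest value of both receptors was that of replicate 3 of WT cocaine ZT15, which held 136 FPKM of Ntrk2 beside 87.2 and 109, and 78.0 of Ntrk3 beside 28.2 and 24.2. In WT mice at ZT7 Ntrk2 was 97.5, 96.9 and 96.5 FPKM after cocaine and 86.3, 88.5 and 89.2 after saline, a narrow but complete separation that did not pass. Over ZT7 to ZT23 the log2 difference of cocaine from saline for Ntrk2 was 0.00 (95% interval -0.15 to 0.16) in WT and 0.06 (-0.09 to 0.21) in iMSN-D2RKO mice. For Ntrk3 it was 0.10 (-0.12 to 0.31) in WT and 0.17 (-0.04 to 0.38) in iMSN-D2RKO mice. The genotypes differed for Ntrk2 by 0.02 (-0.14 to 0.17) in saline and 0.07 (-0.08 to 0.23) in cocaine. For Ntrk3 the range of group means over time in WT cocaine was 0.76 with all libraries (adjusted p = 0.0889 by limma) and 0.31 without replicate 3 of ZT15. It passed with scaling to the median ratio (0.82, adjusted p = 0.0373) and with the score as a covariate (0.95, adjusted p = 0.0110), as did Ntrk2 with the score (0.51, adjusted p = 0.0128). Of all genes 28% passed this test with all libraries, and 86 to 4904 genes did over the alternative settings. Ntrk2 was higher in the set-apart libraries in all 10 groups that hold both, by 0.31 on the log2 scale. The genes most like it were Lrrc58 (r = 0.86), Zc3h12c (0.85) and Zfp334 (0.85) over group means and Tenm1 (0.91), Ssr1 (0.91) and Ptprz1 (0.90) over single libraries. For Ntrk3 they were Slit3 (0.91), Zmym3 (0.90) and Focad (0.88) over group means and Unc79 (0.94), Zfp609 (0.94) and Nbea (0.94) over single libraries.

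**Figure D4:**
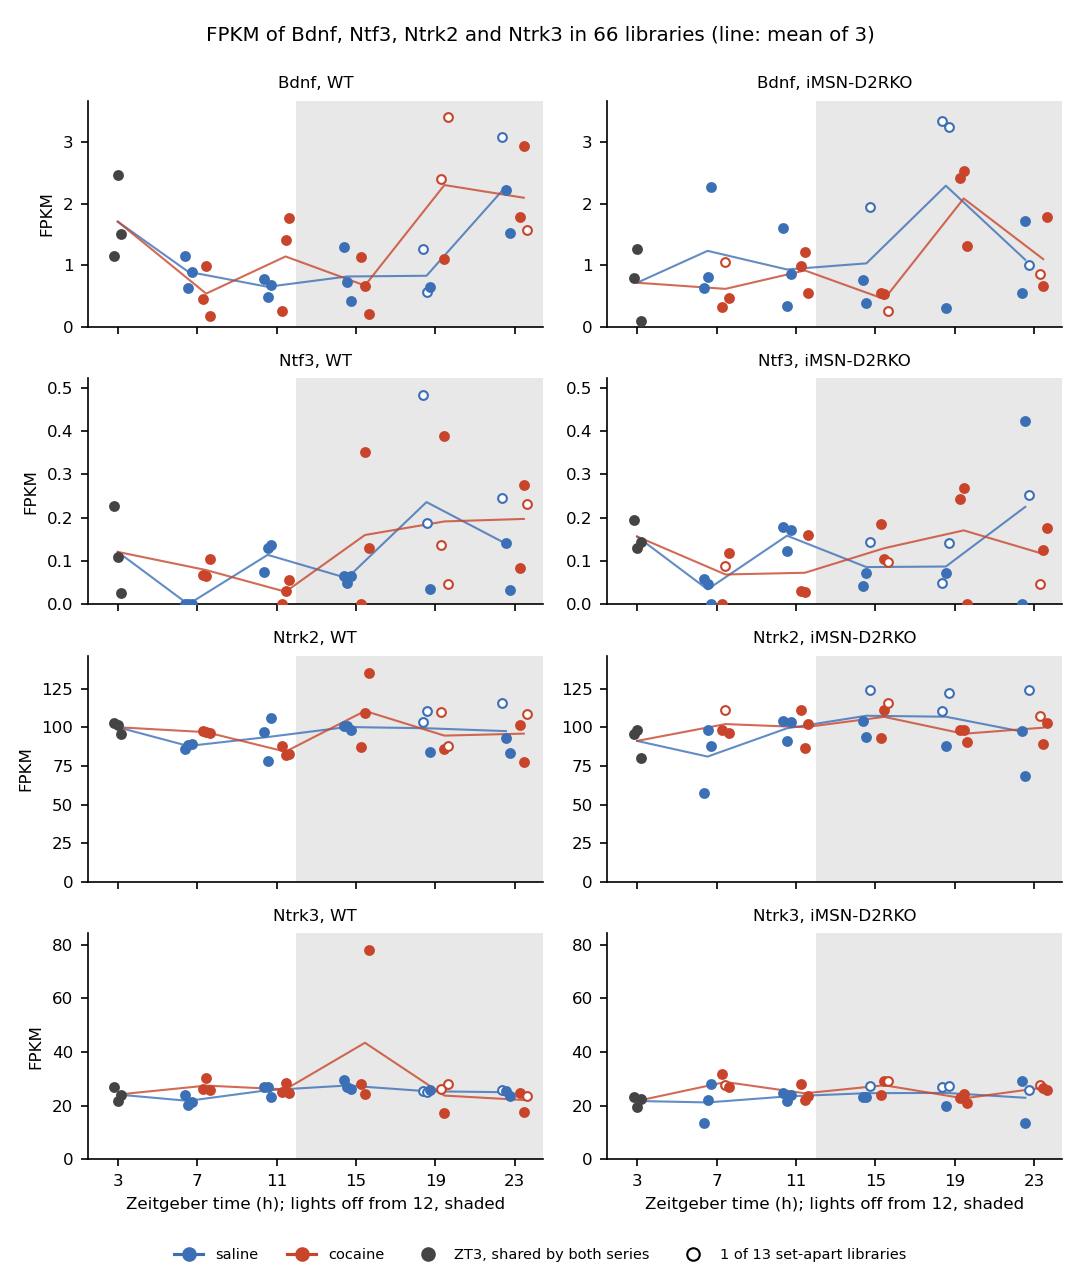
Level of the neurotrophin genes Bdnf and Ntf3 and of the receptor genes Ntrk2 and Ntrk3 in FPKM (linear axes from 0) against the time of killing in hours after lights on, by genotype and treatment; points are libraries (open, set-apart ones), lines join the means of 3 and shading marks the dark hours. Ntf3 stays at or under 0.483 FPKM, and 1 library of WT cocaine at ZT15 holds 78.0 FPKM of Ntrk3.

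Rhythm was also tested with JTK_CYCLE, a rank test of a cycle of fixed period, at a p of 0.01, which after its own correction over periods and phases is not adjusted over genes. It called 2 of 28 pairs of a gene and a series. Arc was called in iMSN-D2RKO cocaine (exact p = 0.00755, 18 libraries, period 24 h, peak at ZT19), with 1.1% of all genes called in that series; without the set-apart libraries its exact p was 0.0164. Npas4 was called in WT cocaine (exact p = 0.00253, period 24 h, peak at ZT1), with 7.61% of all genes called, after Dixon's test had left out 2 outlying libraries; with all 18 libraries its p was 0.0809. Arc in WT cocaine had an exact p of 0.0146, and of 0.00301 without the set-apart libraries. In WT saline, where 9.81% of all genes were called, the lowest p were those of Bdnf (0.0199), Homer1 (0.0269) and Ntrk3 (0.0410), and in iMSN-D2RKO saline, with 2.58% called, none was under 0.05. Each of the 2 calls was lost with any replicate number dropped from all groups. A 24 h cosine fitted in each series with limma passed for other pairs: Bdnf (adjusted p = 0.0368) and Homer1 (adjusted p = 0.0473) in WT saline, where 14.1% of all genes passed, and Arc in WT cocaine (adjusted p = 0.0281), where 14.6% did. It did not pass for Arc in iMSN-D2RKO cocaine (adjusted p = 0.239) or Npas4 in WT cocaine (adjusted p = 0.161), and 0% of all genes passed in iMSN-D2RKO cocaine and 0.00707% in iMSN-D2RKO saline. The difference in rhythm between treatments or between genotypes, as a 24 h cosine in limma, passed for 0 of 28 pairs, of which 6 had an unadjusted p under 0.05. It passed for 0% of all genes between treatments in WT mice, 0% between treatments in iMSN-D2RKO mice, 0% between genotypes in saline and 0% between genotypes in cocaine. In these comparisons in turn, 1.38%, 5.54%, 2.48% and 6.21% of all genes had an unadjusted p under 0.05 by limma.

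Other activity-induced genes were looked at as a list of 36, all of them tested. Over time 24 of them passed in WT cocaine, led by Nr4a1, an orphan nuclear receptor (range of group means 2.48 on the log2 scale, adjusted p = 1.63e-07 by limma), the clock gene Per1 (1.32) and Tiparp (1.38). In WT saline 11 passed, led by Nr4a1 (2.52), Per1 (1.22) and Sik1 (1.32), a kinase of CREB coactivators. In iMSN-D2RKO mice 2 passed in saline, Bhlhe40 (0.72) and Scg2 (1.02), and 1 in cocaine, Egr2 (2.04). The shares of all genes passing were 28% in WT cocaine, 1.6% in WT saline, 3.49% in iMSN-D2RKO saline and 0.997% in iMSN-D2RKO cocaine.

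As for Arc, WT saline libraries of later times lay below ZT3 for 16 of the 36 genes and above for 0 (0.348% of all genes passed), with a median log2 difference over the list of -0.52 against 0.05 over all genes. Nr4a1 (-2.09), Egr2 (-2.44) and Sik1 (-1.0) led by p. In iMSN-D2RKO mice 0 of the 36 passed (0.0205% of all genes did) and the median was 0.07. There 2 of the 36 had an unadjusted p under 0.05 by limma, as did 15.3% of all genes. At ZT3 itself 3 of the 36 were lower in iMSN-D2RKO than in WT mice, Egr2 (-2.49), Tiparp (-1.35) and Cyr61 (-0.98), named here after their values were seen, and 0 were higher, with a list median of -0.49 against 0.01. These 3 were among the 6 genes of the whole table that passed there, all of them lower.

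Between dark and light hours, 4 of the 36 fell and 0 rose in WT saline, led by Sik1 (-0.52), Plk3 (-0.37) and Egr4 (-1.0). In WT cocaine 3 rose and 4 fell, and the leading genes by p were Nr4a1 (0.93), Egr1 (0.79) and Csrnp1 (-0.49). In iMSN-D2RKO saline 5 rose, led by Scg2 (0.69), Nr4a3 (0.84) and Tiparp (0.50), and in iMSN-D2RKO cocaine 4 rose, led by Egr2 (1.26), Nr4a3 (1.07) and Nr4a1 (0.79). Of all genes 2.75%, 13.7%, 27.3% and 0.942% passed in these series in turn, so that with all libraries the 5 of 36 in iMSN-D2RKO saline is a lower share than that of all genes. Over the alternative settings fewest genes passed there without the set-apart libraries, which lay at ZT15, ZT19 and ZT23 in this series. For cocaine against saline over ZT7 to ZT23 in WT mice 1 passed, Nr4a1 (0.70, adjusted p = 0.0326 by limma), and the list median was 0.14 against 0.00 over all genes. In iMSN-D2RKO mice 0 of the 36 passed, with 8 at an unadjusted p under 0.05 by limma and a median of 0.11. Between genotypes at ZT19 after cocaine, where Nptx2 passed, 6 of the 36 were higher and 1 lower in iMSN-D2RKO mice (11.9% of all genes passed), with a list median of 0.37. Over ZT7 to ZT23, Nr4a1 (0.82) and Inhba (0.80), which encodes a subunit of activin, were higher in iMSN-D2RKO mice after saline, and Inhba (0.97) after cocaine.

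Neurotrophin receptors, ligands and processing genes beyond the 8 numbered 15 tested of 16. Over time 5 passed in WT cocaine, where 28% of all genes did, led by Bex1, which encodes an interactor of the neurotrophin receptor p75 (2.27), and the proneurotrophin receptor gene Sorcs2 (1.16). Bex1 (1.63) also passed in iMSN-D2RKO saline, where 3.49% of all genes did. Dark hours were lower for Sorcs2 in iMSN-D2RKO saline (-0.47), in a comparison that 27.3% of all genes passed. None of the 15 passed for cocaine against saline over the times by limma, with 0 in WT and 1 in iMSN-D2RKO mice at an unadjusted p under 0.05.

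Of 23 adaptors and effectors of Trk receptors, 4 passed over time in WT cocaine, led by Rapgef1 (0.65), Shc1 (0.91) and Shc2 (0.78). In dark against light hours Kidins220, a substrate of Trk receptors, was higher in WT cocaine (0.53), and in iMSN-D2RKO saline 4 rose and 1 fell, led by Crk (0.38), Kidins220 (0.57) and Sos1 (0.70). Of 20 tested binding partners of Homer1, Arc, Npas4 and Nptx2, 5 passed over time in WT cocaine, led by Sh3gl3 (1.04), Shank3 (1.47) and Homer3 (0.92). The AMPA receptor gene Gria1 (0.48) and the scaffold gene Dlgap1 (0.38) were higher in the dark in WT cocaine, and in iMSN-D2RKO saline 3 rose and 2 fell, led by Ap2m1 (-0.41), Homer3 (-0.44) and Arnt (0.33). For both lists the share that passed was under that of all genes over time in WT cocaine (28%). It was also under it between dark and light hours in WT cocaine (13.7%) and, with all libraries, in iMSN-D2RKO saline (27.3%). For neither list did a gene pass for cocaine against saline over the times by limma, with at most 2 genes at an unadjusted p under 0.05 in a genotype.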

How the data were processed

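Stranded poly(A) libraries were sequenced by the authors as single-end reads, aligned to mm10 with TopHat and Bowtie2, and quantified per gene with Cufflinks, Cuffmerge, Cuffquant and Cuffnorm; the submitters' processing notes also name CASAVA 1.8.2. The deposited values are FPKM normalized by the authors over all libraries. Read numbers are not given, so no counting error could be had and precision was taken from the 3 replicates per group. The labels do not say whether replicates came from separate mice or pools, and p-values measure the spread between these samples. The table has 72 columns, all mapped to a sample; 6 columns repeat the ZT3 libraries with identical values and were counted once.

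The genes and lists were chosen with earlier results of these data known. Named are all 8 genes, Drd2, up to 3 genes of each list by smallest p in comparisons over times, and for each of the 8 genes the 3 most correlated; 1 gene that this rule names is not reported here. Genes reaching 1 FPKM in any library were fitted on log2(FPKM + 1), 1 mean per group over all 66 libraries, with limma 3.58.1 in R 4.3.3 (empirical Bayes with a trend, Benjamini-Hochberg adjustment, threshold 0.05). A fold on this scale understates the change of low genes. Comparisons were cocaine against saline, iMSN-D2RKO against WT, dark against light hours and any change over time. The cocaine effect was compared between genotypes over the times and at ZT7. Added after seeing the data were later saline groups against ZT3, within and between genotypes. Also added then were the cocaine effect between genotypes at ZT11, ZT15, ZT19 and ZT23, and dark against light hours between treatments or genotypes. JTK_CYCLE (periods of 20 and 24 h, p threshold 0.01, Dixon's test at 95%) was written in Python 3.11.15 with numpy 2.4.6 and pandas 2.3.3. Each was tested on simulated data. Positions are those of GENCODE on GRCm38. Sequences are from RefSeq.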

Additional observations from a re-analysis of the deposited data

How the results depend on the processing

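Results were recomputed with another pseudocount, filter or scaling, without each replicate, with a replicate block, without the set-apart libraries, and with a library score or cortical marker level as a covariate. A choroid plexus covariate and leaving out replicate 3 of WT cocaine ZT15 or replicate 1 of iMSN-D2RKO saline ZT7 were added after seeing the data. Counts are pairs of a gene and a comparison that passed. For cocaine against saline at each time the count was 0 and became 1 without the set-apart libraries. For iMSN-D2RKO against WT at each time it was 1, and became 0 without a filter, 3 when the set-apart libraries were dropped and 2 with the score as a covariate. For the genotypes over ZT7 to ZT23 it was 0, and 2 when the set-apart libraries were dropped or when the score was a covariate. For dark against light hours it was 2, and 1 without a filter, 1 with scaling to the median ratio and 4 with the cortical covariate. JTK_CYCLE called 2, and 1 without outlier removal. Without 1 replicate of every group the counts were 0 each time for genotypes at single times, 0 to 3 for dark against light hours, 1 to 2 for change over time (5 with all), 0 to 3 for saline against ZT3 (6 with all) and 0 to 1 for JTK_CYCLE; such fits rest on 2 libraries per group. Replicate numbers did not pair the libraries (median correlation of deviations -0.00076 for the same number, 0.0035 for other numbers). The replicate block gave 5 for change over time, 3 for dark against light hours, where Homer1 in iMSN-D2RKO saline passed at an adjusted p of 0.0498, 5 for saline against ZT3, where Nptx2 in WT at ZT19 was lost at 0.0529, and changed no other count. The signs that turned were Nptx2 in dark against light hours of iMSN-D2RKO saline with the score as a covariate (0.037) and Bdnf in iMSN-D2RKO saline at ZT19 against ZT3 without the set-apart libraries (-0.34), neither of which had passed; the cause was not tested. Scaling to the library sum moved the median of all genes by over 0.1 only in comparisons with iMSN-D2RKO saline ZT7, from 0.02 to -0.24 against WT and from 0.00 to 0.25 for cocaine against saline. Over all genes the number passing ranged over settings from 86 to 4904 for change over time in WT cocaine, from 33 to 4893 for dark against light hours in iMSN-D2RKO saline and from 0 to 2973 for genotypes at ZT19 after cocaine. Without read counts, the values of Bdnf and Ntf3 cannot be given a detection limit.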
